A study of Rattus norvegicus with 4 samples.

Results

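The 10 genes described here encode products of mast cells: the chymases Cma1, Mcpt1, Mcpt1l3 and Mcpt2, the tryptases Tpsb2 and Tpsab1, the carboxypeptidase Cpa3, the receptors Kit and Ms4a2, and the histamine-forming enzyme Hdc. They were selected by gene symbol, and 11 probes of the 30367 gene probes on the array carried them, out of 26514 gene names. The FeO against FeA ratios of these data were already known when the genes were chosen, so their FeO values are a description and support nothing further.

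Pancreas RNA came from weanling male Sprague-Dawley rats fed for 3 weeks on an iron-deficient (FeD, 5 ppm iron), iron-adequate (FeA, 35 ppm) or iron-overloaded (FeO, 20275 ppm) diet. The FeA value is the nominal content, whereas the FeD and FeO values were measured. RNA from the rats of each diet was combined into 1 pool, and each of the FeD and FeO pools shared 2 arrays with the FeA pool, with the dyes exchanged between them. The arrays of a comparison are therefore repeat measurements of 1 pool per diet, and their difference shows technical spread, not variation among rats. Both comparisons share the FeA pool, and all 4 arrays were on 1 slide. The median red signal of a spot was between 183 and 222.5 over a local background of 82 to 87, and the median green signal between 115 and 121.5 over 50 to 57.

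Mast cells are resident immune cells that store proteases, histamine and heparin in granules and release them when IgE bound to its receptor is cross-linked. In rodents, connective tissue type mast cells are known for Cma1, tryptases and Cpa3, whereas mucosal type cells of the gut carry other chymases of the same gene cluster. In pancreas, mast cells lie in connective tissue around ducts, vessels and lobules.

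In FeO pancreas, the probes of Cma1, Mcpt2, Tpsb2, Tpsab1 and Cpa3 and the brighter Mcpt1l3 probe were higher than in FeA pancreas on both arrays. In FeD pancreas the same probes had mean log2 ratios between -0.25 (Mcpt2) and 0.20 (Mcpt1l3). Kit and Hdc were also higher than FeA on both FeO arrays. Unlike the proteases, Kit was about as high in FeD, with ratios of 0.50 and 0.31. The Mcpt1 probe and the other Mcpt1l3 probe were not well above background. Of the 10 genes, 8 passed the filter in the FeO comparison, which asks that a probe be well above background on both arrays in at least 1 of the diets. The mean log2 ratio was at least 1 in 4 of the 10, namely Cma1, Mcpt1l3, Tpsab1 and Tpsb2, and 0.663% of the 16432 genes that passed were as much higher. Tpsb2 fell below 1, to 0.91, with no background subtraction, and Tpsab1 to 0.89 on FeO array 1 alone. The count was 7 with a normexp offset of 0 and 7 with processed signals, under which 202 and 366 of all genes were as much higher. None of the 10 was lower by that size, against 0.505% of all genes. At the log2 size of 2 used in the methods, none was higher or lower, against 0.0609% and 0.134% of all genes. That count of 0 turned on the background handling: it was 2 with a normexp offset of 0 (Cma1 and Mcpt1l3) and 4 with the scanner's processed signals (these and Hdc and Tpsb2), a check added after the data were seen. Of all genes, 0.17% were as much higher and 0.237% lower with an offset of 0, and 0.371% and 0.517% with processed signals. Because the genes were chosen with this contrast known, nothing is read from these shares. In whole-tissue RNA, more cells of a type and more RNA per cell cannot be told apart.

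In FeD pancreas, 7 of the 10 genes passed the filter and none was past the size of 1, higher or lower, against 0.127% of 15735 genes higher and 0.248% lower. At a size of 2 the shares of all genes were 0.0191% higher and 0.089% lower, with none of the 10. The median log2 ratio over the 7 genes was 0.09, beside 0.01 over all genes that passed. For FeO it was 1.00 over the 8 genes, beside 0.01 over all. Over all 10 genes, dim ones included, it was 0.08 for FeD and 0.77 for FeO.

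**Figure D1:**
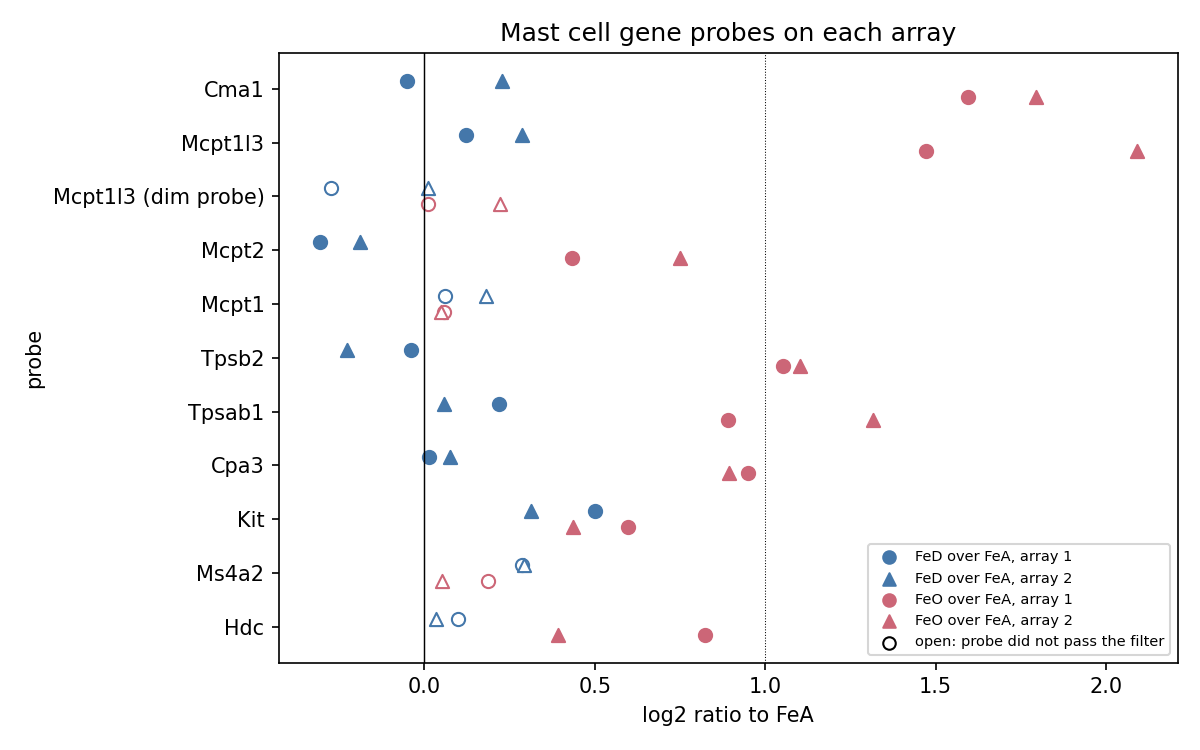
Log2 ratio to FeA (horizontal axis) of each probe (vertical axis) on each array, FeD in blue and FeO in red, with open symbols for probes that did not pass the filter and a dotted line at 1. Cma1 and the brighter Mcpt1l3 probe lie between 1.47 and 2.09 on the FeO arrays, and no FeD point exceeds 0.50.

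The chymases are serine proteases of the granule. Cma1 had log2 ratios of 1.60 and 1.79 on the FeO arrays, a mean of 1.69 or 3.24-fold over FeA. On the FeD arrays it had -0.05 and 0.23. By channel, its log2 signal was 8.65 and 8.69 in FeO, 6.93 and 6.96 in FeD, and 6.98, 6.74, 7.05 and 6.90 in the 4 FeA channels. Both FeO values thus lay above all 4 FeA values, and the FeD values lay among them.

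Mcpt1l3 was represented by a pair of probes, which the deposited tables name Mcpt1l4, a synonym of Mcpt1l3 in RefSeq. The brighter probe had FeO ratios of 1.47 and 2.09, a mean of 1.78 or 3.44-fold over FeA, and FeD ratios of 0.12 and 0.29. Its log2 signal was 9.08 and 9.72 in FeO against 7.24 to 7.63 in FeA. The other probe was not well above background in any channel, so the probes disagree and the gene's value rests on 1 of them.

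Mcpt2 was 1.51-fold over FeA in FeO pancreas, with ratios of 0.43 and 0.75, and was lower than FeA in FeD pancreas, with -0.31 and -0.19. Its FeO signals of 7.17 and 7.41 lay above the 4 FeA signals, which spanned 6.66 to 7.10, and its FeD signals of 6.46 and 6.91 overlapped them. The Mcpt1 probe was not well above background in any of the 8 channels, and no ratio is drawn from it. The accession behind the Mcpt2 probe belongs to the gene that RefSeq now calls Mcpt1, and that behind the Mcpt1 probe to Vch, a vascular chymase. These genes are close copies, and a probe may take up RNA of more than 1 of them.

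In RefSeq (GRCr8) the chymases lie together on chromosome 15, and Mcpt8, Mcpt1l3, Mcpt9, Mcpt1 and Ctsg follow each other in that order with few genes between. Their probes did not go the same way in FeO: Mcpt8 had a mean log2 ratio of -0.16, whereas Ctsg, the cathepsin G gene, had 0.59. Mcpt9 had -0.44, but was well above background on only 1 of the 2 arrays in FeO.

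The tryptases are trypsin-like proteases stored as tetramers on heparin. Tpsb2 had FeO ratios of 1.052 and 1.101, a mean 2.11-fold over FeA, and FeD ratios of -0.04 and -0.23, the latter with an FeD signal that was not well above background. Tpsab1 had FeO ratios of 0.89 and 1.32, a mean 2.15-fold over FeA, and FeD ratios of 0.22 and 0.06. The FeO signals of Tpsb2, 7.54 and 7.62, were above its FeA signals of 6.48 to 6.70. Those of Tpsab1, 8.43 and 8.51, were above FeA signals that spanned 6.50 to 7.53. The FeA pool itself read 0.74 log2 units higher for Tpsab1 beside FeO than beside FeD, which is a spread between readings of 1 pool.

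Cpa3, the mast cell carboxypeptidase, had FeO ratios of 0.95 and 0.89, a mean 1.89-fold over FeA and the value nearest below the size of 1, with Tpsb2 the nearest above it. Its FeD ratios were 0.01 and 0.07. The FeO signals of 8.37 and 8.41 were above the FeA range of 6.68 to 7.52.

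Promoters of Cma1, Mcpt1l3, Tpsab1, Tpsb2 and Cpa3, which had the largest mean FeO ratios of the 10 genes, are shown next. Each is the 250 bases before the start, from RefSeq (GRCr8), 5′ to 3′ on the gene's strand. Mcpt2, Kit and Hdc were also higher on both FeO arrays, and their promoters are not shown. Of the 10 genes, 9 matched the promoter table by accession or symbol, and Ms4a2 was the other. Capitals mark the letters GATAA or TTATC, the core that GATA factors bind, and CACATG or CATGTG, an E-box form known for MITF. Both factors act in mast cell development.
Cma1, chr15:33390134-33390383, minus strand: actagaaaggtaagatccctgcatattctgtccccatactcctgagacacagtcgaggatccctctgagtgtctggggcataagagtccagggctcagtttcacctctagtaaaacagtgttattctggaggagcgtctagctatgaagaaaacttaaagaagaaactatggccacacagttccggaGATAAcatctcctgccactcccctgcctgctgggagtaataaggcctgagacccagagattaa
Mcpt1l3, chr15:33806396-33806645, plus strand: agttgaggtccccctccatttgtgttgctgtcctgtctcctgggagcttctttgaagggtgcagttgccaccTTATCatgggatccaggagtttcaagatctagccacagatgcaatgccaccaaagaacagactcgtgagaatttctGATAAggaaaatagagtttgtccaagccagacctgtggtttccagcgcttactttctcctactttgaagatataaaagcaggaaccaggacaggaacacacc
Tpsab1, chr10:14867303-14867552, minus strand: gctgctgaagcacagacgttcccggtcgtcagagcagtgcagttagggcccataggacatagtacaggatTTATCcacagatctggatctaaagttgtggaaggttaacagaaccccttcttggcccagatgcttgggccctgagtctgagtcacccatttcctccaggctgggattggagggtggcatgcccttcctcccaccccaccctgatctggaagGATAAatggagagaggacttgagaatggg
Tpsb2, chr10:14886060-14886309, plus strand: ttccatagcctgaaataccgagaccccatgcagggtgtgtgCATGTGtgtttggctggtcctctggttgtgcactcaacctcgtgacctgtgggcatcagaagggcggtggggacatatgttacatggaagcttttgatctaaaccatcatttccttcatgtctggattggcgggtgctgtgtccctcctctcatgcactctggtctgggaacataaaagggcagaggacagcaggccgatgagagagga
Cpa3, chr2:104673238-104673487, minus strand: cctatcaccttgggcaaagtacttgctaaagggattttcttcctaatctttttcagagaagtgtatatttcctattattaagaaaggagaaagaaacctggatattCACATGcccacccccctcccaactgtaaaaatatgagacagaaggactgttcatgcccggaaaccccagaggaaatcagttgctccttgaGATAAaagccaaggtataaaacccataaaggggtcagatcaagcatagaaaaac

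GATAA or TTATC occurred in 6 of the 9 promoters, beside 23.5% of 33469 rat promoters of the same length. In Cma1 its first base lay at position -63 from the start, in Cpa3 at -54, and in Tpsab1, with a pair of matches, at -180 and -29. CACATG or CATGTG occurred in 2 of the 9, Tpsb2 and Cpa3, beside 12.1% of all promoters. The promoters of Kit and Hdc had neither motif. The matches in Mcpt1l3 and in the genes of the Mcpt1 and Mcpt2 probes are not separate cases, since the promoter of Mcpt1l3 was identical to that of the Mcpt1 probe's gene at 89.2% and to that of the Mcpt2 probe's gene at 84.4% of aligned positions. Tpsab1 and Tpsb2 were identical at 55.6%. A match describes these letters and is not a measured binding site.

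The receptors and the histamine enzyme follow. Kit, the receptor for stem cell factor, was higher than FeA on all 4 arrays, with ratios of 0.60 and 0.44 in FeO and 0.50 and 0.31 in FeD. Its signals in FeO, 8.07 and 8.28, and in FeD, 8.15 and 7.91, were above all 4 FeA signals, which spanned 7.47 to 7.84. Kit is also carried by interstitial cells of Cajal, and their marker Ano1 had a mean ratio of -0.06 in FeO and -0.04 in FeD. The arrays differed in sign for Ano1, with 0.04 and -0.15 in FeO and 0.02 and -0.09 in FeD. Etv1, another marker of these cells, was not well above background in any channel. The part of these cells in the Kit values was not tested. Ms4a2, the beta chain of the IgE receptor, was not well above background in any channel. Hdc, which makes histamine from histidine, had FeO ratios of 0.82 and 0.39, a mean of 0.61 or 1.52-fold over FeA, but 1.18 with an offset of 0 and 2.34 with processed signals, so its size is not settled. It was well above background on 2 arrays in FeO but on 1 of 2 in FeA there, and it did not pass the filter for FeD.

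**Figure D2:**
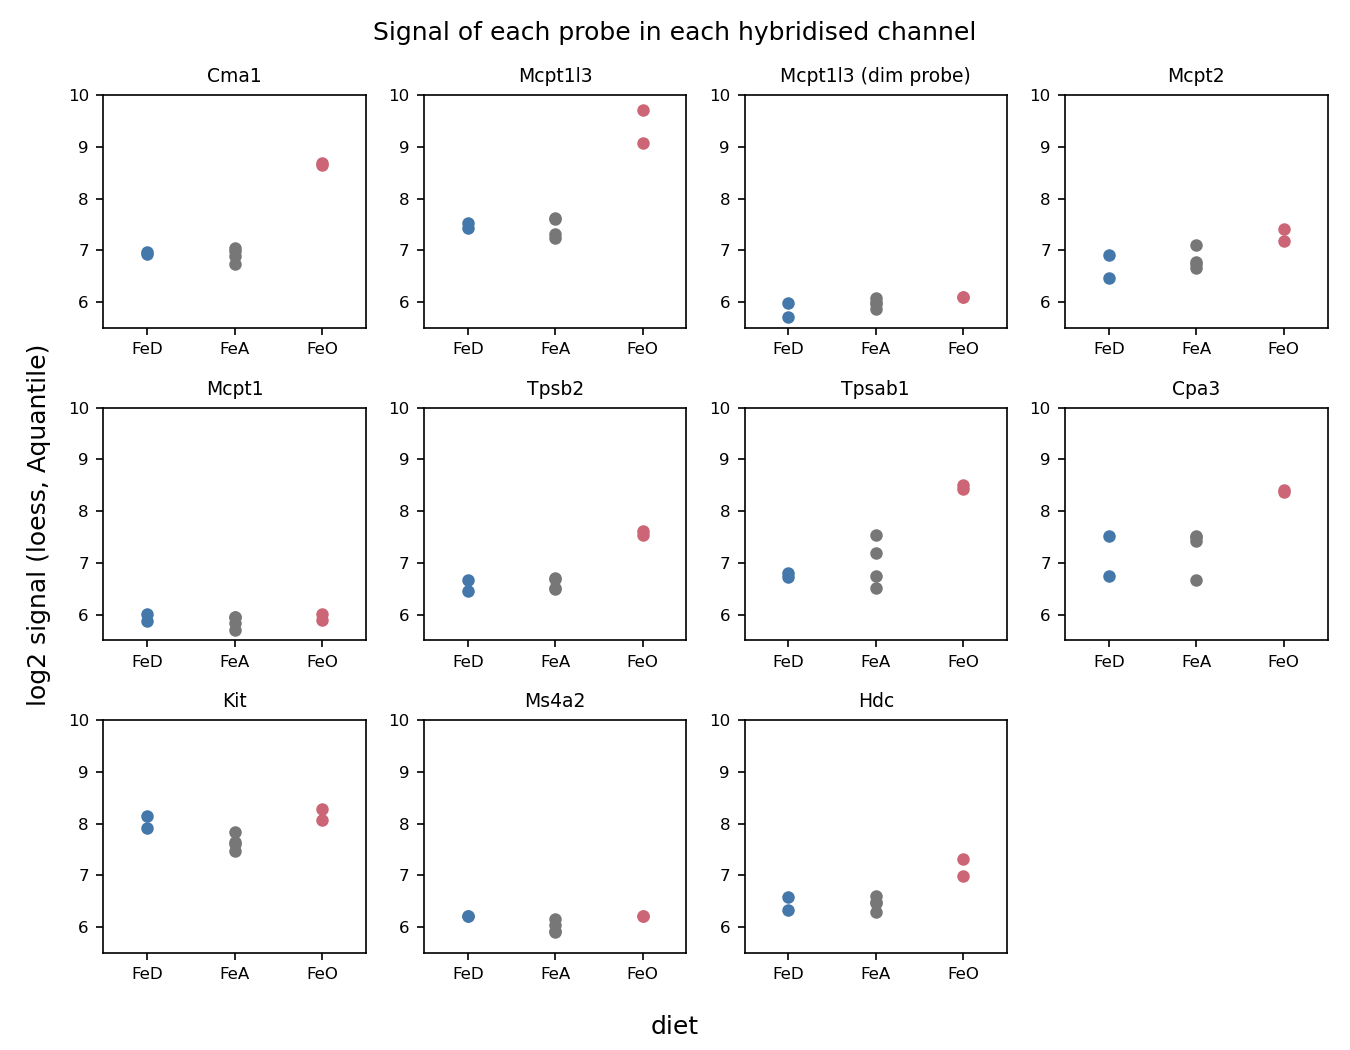
Log2 signal (vertical axes, after loess and Aquantile scaling) of each probe in every hybridised channel by diet, with 2 FeD, 4 FeA and 2 FeO points per panel. FeO points are above the FeA points for the 8 probes that passed the filter, by the least margin for Mcpt2 and Kit, and dim probes lie near 6.

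**Figure D3:**
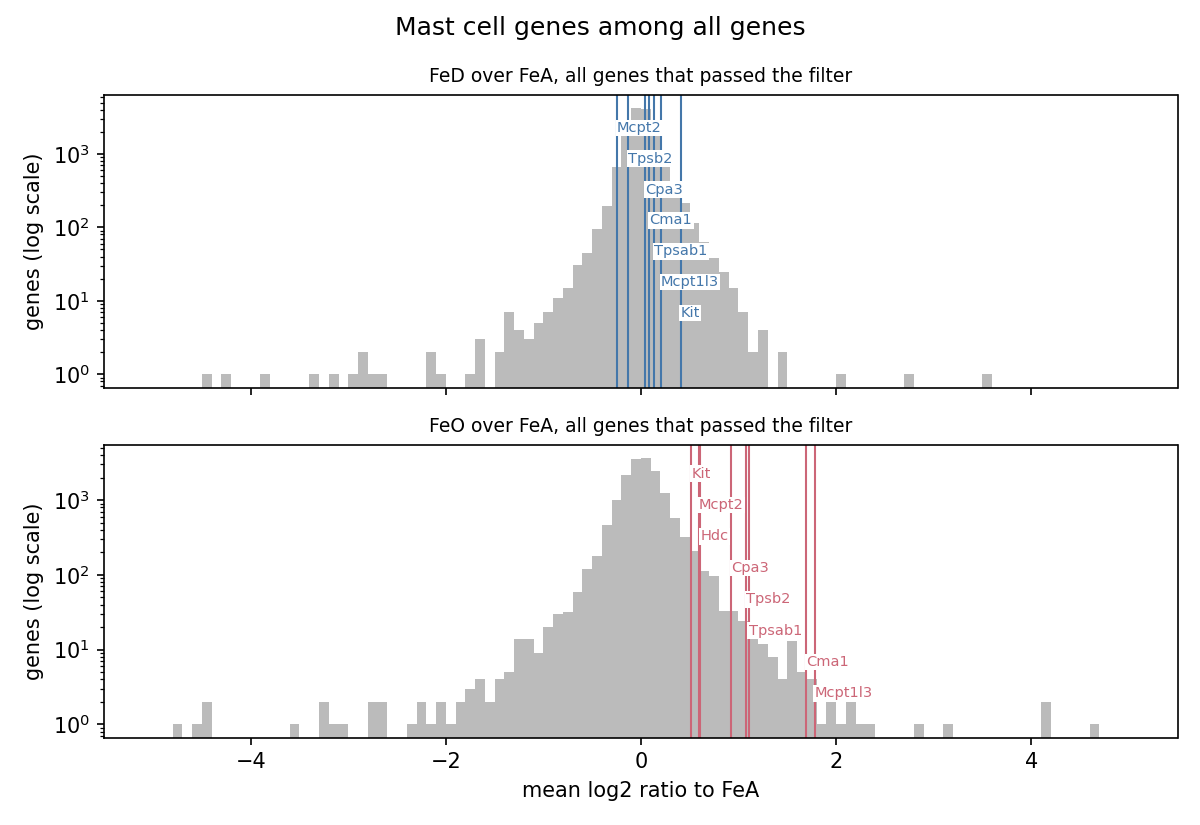
Number of genes (vertical axis, log scale) by mean log2 ratio to FeA (horizontal axis) among genes that passed the filter, FeD above and FeO below, with lines at the mast cell genes. In FeO the lines lie between 0.52 and 1.78, and in FeD between -0.25 and 0.41.

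Of 12 mast cell markers, 9 are among the 10 genes, and none of the other 3 passed the filter in either comparison. Ms4a2, Gata2 and Mcpt1 were not well above background in any channel. Fcer1a, the alpha chain of the IgE receptor, and Il1rl1, the IL-33 receptor, were well above it in at most 1 of 8 channels per probe. Fcer1g, the gamma chain that other Fc receptors share, was well above background in all 8 channels, but its arrays disagreed, with ratios of 0.16 and 1.01 in FeD and -0.01 and 1.04 in FeO. The 5 connective tissue type markers are all among the 10 genes and add nothing to them. Of 6 mucosal type markers, Mcpt2, Mcpt8 and Mcpt9 passed in FeO and none was past the size. Mcpt8 is also a basophil gene, and the naming of the Mcpt1 and Mcpt2 probes given above leaves unsettled which type they stand for, so no contrast between the types is drawn.

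Lists of further mast cell genes were counted in the same way, with the 10 genes left out. Of 11 other mast cell protease genes on the array, 4 passed in FeO, Mcpt8, Mcpt9, Ctsg and Prss34, and none was past the size, with a median of 0.13. Of 21 other receptor and signalling genes, 12 passed in FeO and none was past the size in either direction, with a median of 0.10. The same held for 8 of 15 other histamine, heparin and lipid mediator genes (median 0.13), 7 of 9 transcription factors (0.12) and 5 of 14 growth factors and cytokines (0.19). In FeD none of these genes was past the size, and the list medians lay between 0.01 and 0.20.

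Among 12 protease inhibitors and targets, 8 passed in FeO and 3 were higher, with a median of 0.61. Agt, angiotensinogen, whose product angiotensin I chymase cleaves, had 1.55, Serpina3n, a serine protease inhibitor, 1.19, Slpi, an inhibitor of leukocyte proteases, 0.77, and Timp1, a metalloproteinase inhibitor, 1.03. In FeD, 7 passed, none was past the size, and Slpi was at 0.94 and Serpina3n at 0.84, so that both were higher than FeA in both comparisons. Of 10 other granule serine proteases, 7 passed in FeO and 1 was higher, Cfd at 2.30, with a median of -0.10.

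Cfd is also an adipocyte product, and adipocyte markers were higher in FeO alongside Cma1, Mcpt1l3, Tpsab1 and Tpsb2. Of 6 adipocyte markers, all passed in FeO and 4 were higher by at least 1, with Cfd at 2.30, Car3 at 2.14, Adipoq at 2.07 and Fabp4 at 1.47. Lep differed in sign between the arrays, with -0.11 and 0.31, and Plin1 was not well above background in FeA. Their summed linear signal was 37251 and 36547 in FeO against 11105 and 10154 in FeA on the same arrays. In FeD it was 8984.5 and 7755.9 against 10833 and 8535.9. The brightest probe in FeA was that of Cfd, and no marker was below background everywhere. The part of adipose tissue in the mast cell result was not tested.

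Markers of further cell types also differed between the pools. Of 5 intestinal epithelial markers, 4 were lower than FeA by at least 1 in FeO and the same number in FeD. Fabp1, Fabp2 and Cdh17 were not well above background on any FeO array, so only bounds can be given: FeA was at least 21.8-fold, 6.32-fold and 3.54-fold higher. In FeD the same held for Fabp2, at least 6.76-fold, while Fabp1 and Cdh17 were well above background on 1 of the 2 FeD arrays. Their summed signal, dim probes included, was 4069.2 and 3796.8 in FeA beside FeO against 473.47 and 647.07 in FeO, and 4080.9 and 3866.1 in FeA beside FeD against 662.41 and 877.04 in FeD, with the Fabp1 probe the brightest in FeA. Of the lymph node, T cell and B cell markers that passed in FeD, 1 of 4 (Glycam1, 1.15), 0 of 5 and 0 of 3 were higher by at least 1. In FeO, 1 of 4 (Glycam1, -2.75), 1 of 4 (Cd3g, -1.19) and 0 of 2 were lower by at least 1, and Cxcl13 was at 0.98. The medians of these lists were 0.68, 0.44 and 0.60 in FeD and -0.56, -0.46 and -0.94 in FeO. Summed lymph node signal was 7683.2 and 7791.6 in FeD, 2044.6 and 2318.7 in FeO, and 4096.9 to 4325.6 in FeA, with the Ccl21 probe the brightest in FeA. Fibroblast markers had a median of 0.34 in FeO and mesothelial markers 0.62, with 1 of 3 mesothelial markers past the size. That marker was Wt1, whose mean over its passing probes was 0.62, so its call rests on 1 of them. No passing Wt1 probe was well above background in FeA on both FeO arrays. The part of these tissues in the mast cell result was not tested.

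Markers of other granulocytes were measured in part. Of 5 eosinophil markers, Prg3, Epx and Il5ra were not well above background anywhere, and the 1 that passed, Prg2, had -0.20 in FeO. Of 6 neutrophil markers, 3 passed in FeO with a median of 0.07, and of 4 basophil genes the 3 on the array passed with a median of 0.03. NK and cytotoxic T cell markers had a median of 0.02 and macrophage markers 0.31, the highest of the latter being Cd163 at 0.95. None of these was past the size in FeO or FeD. The acinar markers, which identify the tissue, were measured on both FeD arrays for all 6 genes, with a median of -0.03, and on both FeO arrays for 4, with a median of -0.35. The spots of Cpa1 and Prss1 carried an outlier flag on 1 FeO array and were left out there.

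**Figure D4:**
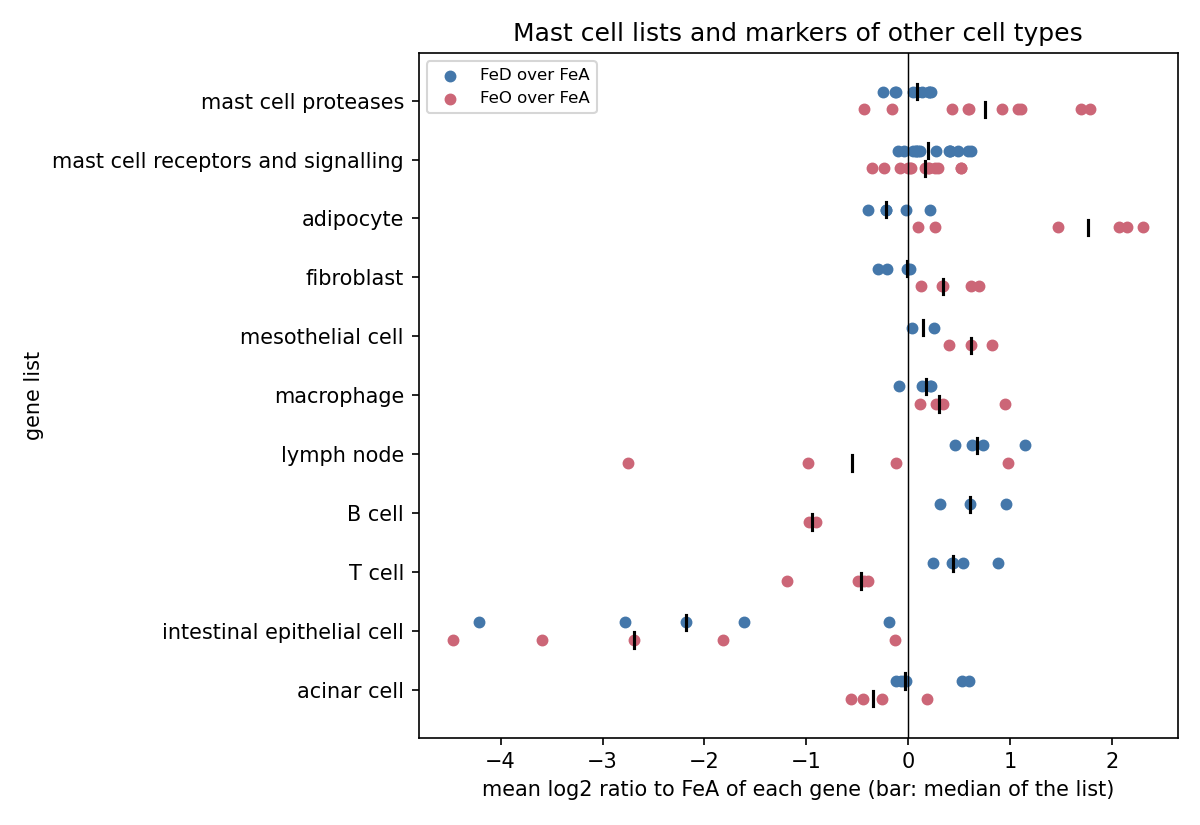
Mean log2 ratio to FeA (horizontal axis) of each gene that passed the filter, by list (vertical axis), FeD in blue and FeO in red, with a bar at the median. Adipocyte markers reach 2.30 in FeO, beyond the mast cell proteases, and intestinal markers lie furthest below 0, most of them near background in FeO.

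The 5 genes nearest to Cma1 over the 4 arrays, by Euclidean distance of the log2 ratios among 15245 genes, were Mosc1, Thrsp, Pparg, Mgst1 and LOC360228, at distances of 0.31 to 0.41. Their mean FeO ratios were 1.77, 1.58, 1.56, 1.57 and 1.62, and their mean FeD ratios lay between -0.14 and 0.23. The genes were picked by these same ratios, so their closeness to Cma1 was set by the choice and is no result.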

How the data were processed

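Spot intensity values, deposited by the authors from Agilent Feature Extraction 10.1.1.1, were medians of red and green spot signal and local background; no mean signals were used. Symbols came from the authors' probe tables for 75.6% of probes (no other accession matched RefSeq, and the rest kept the array's name). The tables' fold changes, P and q values were not used. In limma 3.58.1 (R 4.3.3), signals were corrected with normexp (offset 50), normalized by loess within arrays with controls at weight 0, and outlier spots were left out. Spots of a probe were averaged, ratios of swapped arrays turned, and the 2 arrays averaged as 1 replicate, so no test across rats was made. A gene counted as past the size when the mean over both arrays, of 1 sign, was at least 1 in size on the log2 scale for any probe that passed. List values are means over a gene's passing probes. Channel signals used Aquantile scaling after loess. For a bound, each dim channel was set to the lowest signal of any probe well above background in it, or its own if greater. The steps were tested on simulated data in which only bright probes were given a change. That test does not cover changes at signals as dim as those of most of the 10 genes in FeA. Named genes were the 10 genes, the lists' genes and the 5 nearest to Cma1. The genes and lists were chosen with earlier results of these data known.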

Additional observations from a re-analysis of the deposited data

Results flagged for a closer look

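Mcpt2 and Tpsb2 had opposite signs in the comparisons, lower than FeA on both FeD arrays and higher on both FeO arrays. The FeO mean log2 ratio exceeded the FeD one by 0.84 for Mcpt2 and by 1.21 for Tpsb2. The FeD values were small, -0.25 and -0.13, but -0.70 and -0.44 with processed signals, under which the differences were 1.85 and 2.496. They were least with no background subtraction, 0.66 and 1.02. The FeD signal of Tpsb2 was not well above background on 1 of the 2 arrays, so its sign there rests on the other, with -0.04. Both comparisons share the FeA pool, and the difference was not tested.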

How the results depend on the processing

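The number of the 10 genes past the size in FeO was 4. It was 3 with no background subtraction, 7 with normexp offset 0 and 7 with the scanner's processed signals. It was 0 at a size of 2, 8 at a size of 0.5, and 0 by the methods' t-test after Benjamini-Hochberg. After that correction, 0 of all 16432 genes were higher and 0 lower in FeO, so the 0 says nothing about the 10 genes. In FeD, 1 of all genes was higher and 0 lower after it. At a size of 2 the number of the 10 genes in FeO was 2 with offset 0 and 4 with processed signals, alternatives added after seeing the data. Leaving out an array gave 3 to 4. The methods' t-test alone, on repeat channels of 1 pool per diet, gave 6. In FeD the number was 0 under every alternative run. The FeO median of 1.00 was 0.89 with no background subtraction, 1.31 with offset 0, 1.83 with processed signals, 0.77 without a filter, 1.08 with a filter on both diets, and 0.92 to 1.00 with an array left out. The FeD median of 0.09 was 0.17 with offset 0, 0.22 with processed signals, and 0.013 to 0.074 with an array left out. The cause of these shifts was not tested.

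Over all genes, FeO had 109 higher and 83 lower (95 and 77 with no background subtraction), but 366 and 306 with processed signals, 202 and 198 with offset 0, 592 and 352 at a size of 0.5, and 733 and 685 by the methods' t-test alone, and 253 and 103 or 104 and 93 with 1 array left out. FeD had 20 and 39, but 148 and 156 with processed signals, 59 and 96 with offset 0, 299 and 160 at a size of 0.5, 529 and 533 by the t-test alone, and 74 and 43 or 25 and 52 with 1 array left out. Apart from leaving out an array, the FeO log2 ratio ranged over the alternatives from 1.55 to 2.55 for Cma1, 1.67 to 2.31 for the brighter Mcpt1l3 probe, 0.91 to 2.05 for Tpsb2, 1.04 to 1.61 for Tpsab1, 0.88 to 1.32 for Cpa3, 0.43 to 1.16 for Mcpt2, 0.61 to 2.34 for Hdc and 0.46 to 0.75 for Kit. Of the 11 probes, 3 were not well above background in any channel, which limits what is known of Ms4a2 and Mcpt1. No paired analysis was possible because each diet is 1 pool; each ratio already sets the channels of 1 array against each other.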
